A study of Danio rerio with 4 samples.

Results

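Cathepsins are the proteases of the lysosome, LAMP proteins are the glycoproteins that line its membrane, and the V-ATPase is the proton pump that acidifies it. Most cathepsins are made as inactive precursors and mature at low pH, so the pump and the proteases work together. The V-ATPase has a membrane sector, V0, which carries the protons, and a cytosolic sector, V1, which burns ATP to drive it. In skin, lysosomes serve the turnover of matrix and cell debris, antigen processing in macrophages and other immune cells, and pigment organelles, and proton-pump-rich ionocytes use the V-ATPase at the cell surface.

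The genes were chosen by name. They are all rows of the count table whose symbol, ignoring case, starts with cts and a letter, with lamp and a digit, or with atp6v0 or atp6v1. The rule found 45 of 32105 rows, namely 18 cathepsins, 5 LAMP genes, 9 V0 and 13 V1 subunit genes. Of these, 41 passed the filter on low counts and were tested, and 33 had a mean of at least 5 CPM (12 cathepsins, 3 LAMP genes, 7 V0 and 11 V1 genes). Many symbols follow human names, and 12 of the V-ATPase rows form 6 pairs that share a symbol, so these are given with their Ensembl identifier. Which row of such a pair is which zebrafish paralogue is not given in the sources used here. Reads of close paralogues could be split or lost in counting, which makes single members of these pairs uncertain.

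The skin came from male zebrafish of 5 months (1 library, strain AB JxTu), 24 months (2 libraries, replicates 1 and 2, strain AB JxTu Tg(wt1b:GFP), a line in which wt1b sequence drives green fluorescent protein) and 30 months (1 library, strain AB JxTu). The 24-month age is confounded with its strain, and the 2 cannot be told apart. Neither the number of fish in a library nor whether the 24-month pair came from separate fish is stated in the labels. The p-values thus measure only the spread between these samples, which may be technical. In tests between ages that spread is the 24-month pair's alone, and the single 5-month and 30-month libraries are assumed to vary like it. It was pooled over genes, so a gene's standard error does not follow its own replicates. Levels are CPM, counts relative to library size, after TMM scaling, a scaling that sets the bulk of genes level between libraries. They are compared between libraries, since lengths were not corrected. Shares of a pair or of all cathepsin counts, and rankings of rows by level, set genes side by side and so also reflect gene length.

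Total counts ranged from 11833498 (24 months, replicate 2) to 20441260 (30 months), and 3 counts, the limit that a count of 0 allows, equal 0.130 to 0.310 CPM. Such limits and the intervals below cover counting error only. The tissue label held: all 13 keratinocyte markers were detected in each library, with summed levels of 33909 to 82707 CPM. Replicate 2 of 24 months stood apart. It had 19409 genes with a count against 23155 to 24481 in the others, and its level was 2-fold or more from that of replicate 1 for 40.5% of the 13182 genes averaging at least 5 CPM, while 27.0% differed so far between 30 and 5 months. The libraries also differed in markers of other cells and tissues. The 9 germ cell markers summed to 861 CPM at 5 months, 844 and 2.69 CPM at 24 months and 13.3 CPM at 30 months, and the 8 fibroblast markers to 42410, 4811 and 63335, and 7842 CPM in the same order. Renal tubule is a tissue rich in lysosomes and V-ATPase. Of its 13 tested markers, edgeR called 7 lower at 24 than at 5 months, beside 0.0836% of all genes. The 10 with at least 5 CPM had a median log2 difference of −7.02 between 30 and 5 months. The 14 renal rows summed to 647 CPM at 5 months, 310 and 744 CPM in the 24-month pair and 197 CPM at 30 months, most of it from SLC20A1 rows in the older libraries. The 16 skeletal muscle rows summed to 17680, 8689, 7509 and 17654 CPM in order of age and replicate. The like sums at 5 and 30 months hold opposite differences, with ckma at 3477 and 7567 CPM and pvalb2 at 4631 and 79.4 CPM. Of 14 muscle rows with at least 5 CPM, 3 were 2-fold or more higher at 30 than at 5 months and 4 lower. Of all genes 12.2% and 14.8% were. Of the 15 muscle rows tested, 1 was called lower at 24 than at 5 months and 1 higher at 30 than at 24 months. Of all genes 0.0836% and 0.130% were so called. The part of such tissue in the member levels was not tested. Fewer cells of a type and less RNA per cell cannot be told apart in such bulk samples.

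No cathepsin, LAMP or V-ATPase gene passed a test of age. By edgeR's quasi-likelihood test with Benjamini-Hochberg adjustment, 0 of 41 tested members were called between 24 and 5 months, where 0.125% of 21535 genes were called, and 0 of 41 between 30 and 24 months, where 0.683% of genes were called. The age trend called 0 members and 0% of all genes. None of the 41 had an unadjusted p under 0.05 in any of the 3 tests, where 2.03%, 4.76% and 1.56% of all genes did. DESeq2 called 0 of 41 members in each, beside 0.195%, 0.330% and 0.139% of all genes. Among the 33 members with at least 5 CPM the standard error of a log2 difference was 0.84 to 1.28 between 24 and 5 months and 0.83 to 1.30 between 30 and 24 months, so only large differences could pass. Values below are therefore descriptions.

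**Figure D1:**
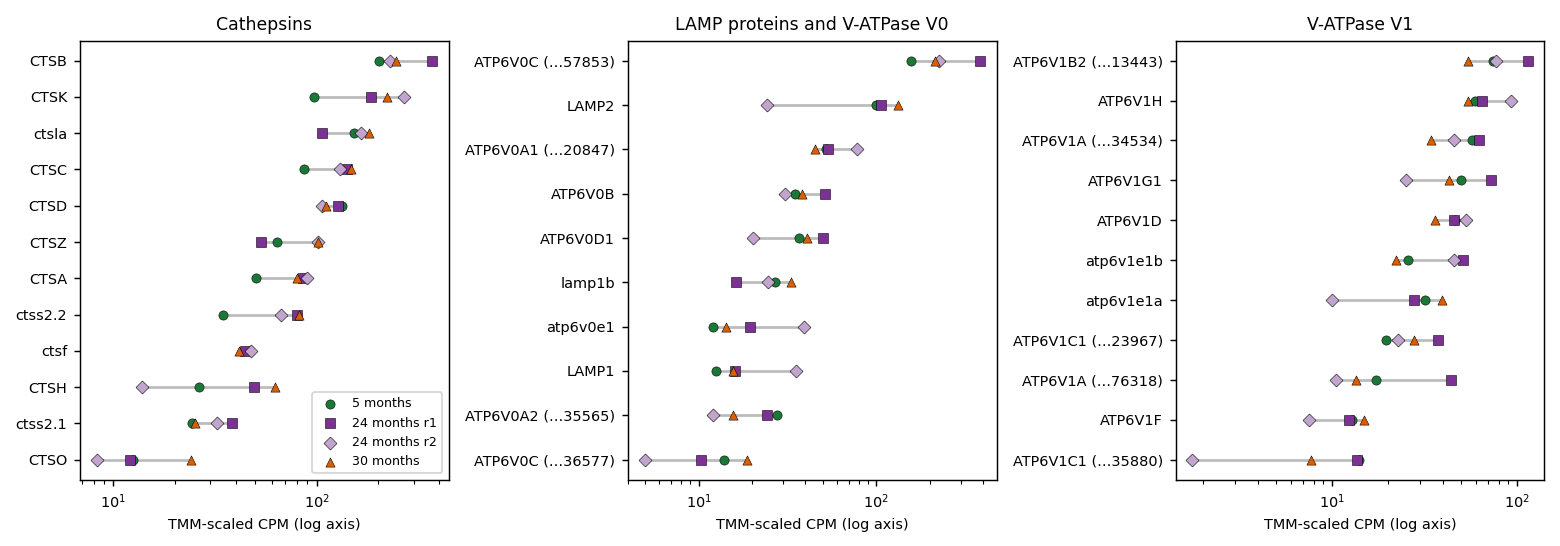
Level of each member with a mean of at least 5 CPM in the 4 libraries, in TMM-scaled CPM on a log axis; r1 and r2 are the 24-month replicates, grey lines span the libraries, and the last 5 digits of the Ensembl identifier tell rows with 1 symbol apart. Green circles (5 months) lie at the low end for 6 of 12 cathepsins, and pale diamonds (24 months, replicate 2) lie at the low end for 9 of 18 V-ATPase genes.

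The cathepsins together summed to 938 CPM at 5 months, 1295 and 1267 CPM at 24 months and 1327 CPM at 30 months. Their 5-month sum was thus the lowest by TMM scaling, but as a share of all counts they made up 0.107% at 5 months, 0.148% and 0.104% in the 24-month pair and 0.124% at 30 months, lowest in replicate 2. By TMM scaling the 5-month library held the lowest level of 6 of 12 cathepsins with at least 5 CPM (23.4% of all genes). These 6 are by definition the ones that stood higher in all 3 older libraries than at 5 months. Of the 12, 1 stood lower in all 3, where 20.9% of all genes did so. With library totals in place of TMM scaling, 4 of the 12 stood higher in all 3. The median log2 difference of the 12 was 0.40 between 24 and 5 months (all genes of at least 5 CPM, 0.08), 0.05 between 30 and 24 months (all genes, −0.15) and 0.23 per 10 months on the age trend (all genes, 0.06). Without replicate 2 the median between 24 and 5 months was 0.75, and without replicate 1 it was 0.28.

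CTSK and ctss2.2 had the largest log2 differences between 24 and 5 months of the 12. CTSK, the collagen-degrading cathepsin known from mammalian osteoclasts, stood at 96.8 CPM at 5 months, 185 and 270 CPM at 24 months and 223 CPM at 30 months. All 3 older libraries were above the young one, and the 30-month level lay between the 24-month replicates. The log2 difference was 1.23 between 24 and 5 months (SE 0.96, edgeR adjusted p = 1) and the slope was 0.54 per 10 months (SE 0.33, edgeR adjusted p = 0.9999). CTSK took 10.3% of all cathepsin counts at 5 months (95% Wilson interval 9.90 to 10.8%) and 16.8% at 30 months (16.3 to 17.2%). At 24 months it took 14.3% (13.9 to 14.7%) in replicate 1 and 21.3% (20.6 to 22.0%) in replicate 2. The intervals of the 24-month pair thus did not overlap either, and they cover counting error only.

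Cathepsin S, which in mammals trims the invariant chain of MHC class II molecules, has 3 rows here. The row ctss2.2 stood at 34.6 CPM at 5 months, 80.0 and 66.4 CPM at 24 months and 81.5 CPM at 30 months. All older libraries lay close together, and the young one was the lowest. The difference between 24 and 5 months was 1.08 on the log2 scale (SE 0.91, edgeR adjusted p = 1). Its neighbour in name, ctss2.1, stood at 24.5 CPM at 5 months, 38.4 and 32.2 CPM at 24 months and 25.3 CPM at 30 months, so the 30-month library was near the young one there. The third row, ctss1, had 25, 14, 36 and 45 counts in order of age and replicate, and its groups overlapped.

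Markers of cells known to carry these proteases differed in order between lists. Of 16 macrophage markers with at least 5 CPM, 12 stood higher in all 3 older libraries than at 5 months, where 23.3% of all genes did so. The whole list of 21 rows summed to 1023 CPM at 5 months, 3324 and 5581 CPM at 24 months and 2382 CPM at 30 months. Class II chaperones cd74a and cd74b made up most of that sum. Of 3 rows of MPEG1, a pore-forming protein of macrophages, 1 was at 0 in all 4 libraries and the others were detected in each. These markers are named after their values were seen. The 8 osteoclast markers summed to 150 CPM at 5 months, 142 and 274 CPM at 24 months and 196 CPM at 30 months, with ocstamp, needed for osteoclast fusion in mammals, at 0 CPM at 5 months and in replicate 2, at 1.87 CPM in replicate 1 and at 0.0525 CPM at 30 months. Of 5 osteoclast markers with at least 5 CPM, 2 were above the young library in all older ones, where 23.3% of all genes were. The 5 neutrophil markers summed to 170 and 182 CPM at 5 months and in replicate 1, 83.8 CPM in replicate 2 and 64.9 CPM at 30 months. Of 4 with at least 5 CPM, 0 were higher at 30 than at 5 months, where 52.9% of all genes were. Only 2 of these 4 stood below 5 months in all 3 older libraries (20.9% of all genes did). The other 2 were highest in replicate 1. Of 11 keratinocyte markers with at least 5 CPM, 9 stood above the young library in all 3 older ones, where 23.3% of all genes did so. The others, cdh1 and epcam, were lowest in replicate 2. The part of these cells in the cathepsin levels was not tested.

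Of the exopeptidases, CTSC, which activates granule proteases of immune cells in mammals, stood at 86.5 CPM at 5 months, 141 and 130 CPM at 24 months and 148 CPM at 30 months. CTSA, a serine carboxypeptidase that also shields lysosomal glycosidases, stood at 50.5, 86.1, 89.3 and 79.9 CPM in the same order. Replicates 2 and 1 of 24 months differed by −0.11 for CTSC and 0.05 for CTSA on the log2 scale, and the 5-month library lay below all 3 older ones for both. Neither passed (log2 differences between 24 and 5 months of 0.65 for CTSC and 0.80 for CTSA, SE 0.90 and 0.89, edgeR adjusted p = 1). CTSB, which acts as both endopeptidase and carboxypeptidase, stood at 203 CPM at 5 months, 369 and 229 CPM at 24 months and 244 CPM at 30 months. Replicate 1 was high, and the other older libraries lay little above the young one.

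CTSH, an aminopeptidase, stood at 26.4 CPM at 5 months, 49.1 and 13.9 CPM at 24 months and 62.1 CPM at 30 months. Of the 24-month replicates, 1 lay above and 1 below the young library, with a log2 difference of −1.82 between replicates 2 and 1. Without replicate 1 the log2 difference between 24 and 5 months was −0.93, against 0.25 with both. The carboxypeptidase CTSZ stood at 63.8, 53.5, 101 and 101 CPM in order of age and replicate, and CTSO, a little-studied member, at 12.5, 12.1, 8.27 and 24.1 CPM. CTSO was highest at 30 months, outside the 24-month pair, while CTSZ at 30 months equalled replicate 2.

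The remaining 3 abundant cathepsins had narrow ranges or no order with age. CTSD, the main aspartic protease of the lysosome, stood at 134 CPM at 5 months, 127 and 106 CPM at 24 months and 111 CPM at 30 months, and was the 1 cathepsin of the 12 with all older libraries below the young one. The papain-like ctsf stood at 46.8, 44.3, 47.3 and 41.4 CPM, the narrowest range of all 12. The cathepsin L row ctsla stood at 153, 107, 164 and 181 CPM, lowest in replicate 1 and highest at 30 months. Of all cathepsin counts CTSD took 14.2% in the 5-month library, 9.79% and 8.40% at 24 months and 8.39% in the 30-month library, and ctsla 16.3%, 8.23%, 13.0% and 13.7% in the same order.

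Cathepsins with few reads gave no more than counts. The row ctsbb had 67 counts in the 5-month library, 9 and 5 in the 24-month pair and 9 at 30 months, so the young library was high alone (log2 difference of 24 against 5 months −2.82, SE 2.71, edgeR adjusted p = 1). The row ctsll had 18, 2, 37 and 7 counts in order of age and replicate, and ctsl.1 had 12, 44, 10 and 11. The row ctslb, known in zebrafish as a hatching gland gene of the embryo, had 1 count in replicate 1 and 0 in the other 3 libraries, and ctslb.4 had 0 in all 4.

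The LAMP genes shared no order of libraries. LAMP2, the LAMP protein tied to autophagy in mammals, stood at 99.9 CPM at 5 months, 106 and 24.2 CPM at 24 months and 133 CPM at 30 months. Replicate 2 alone was low, by 2.13 on the log2 scale against replicate 1, and the 3 other libraries lay within 1.33-fold. LAMP1 stood at 12.6, 16.1, 35.4 and 15.6 CPM in order of age and replicate, so replicate 2 was high there, while lamp1b stood at 27.0, 16.2, 24.5 and 33.1 CPM, with replicate 1 the lowest. None passed (log2 differences between 24 and 5 months of −0.62 for LAMP2, 1.03 for LAMP1 and −0.41 for lamp1b, edgeR adjusted p = 1), and without replicate 2 the difference of LAMP2 was 0.16. The gene lamp3, a marker of mature dendritic cells in mammals, had 13, 54, 4 and 10 counts, and LAMP5, a brain form, had 3, 3, 0 and 0.

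**Figure D2:**
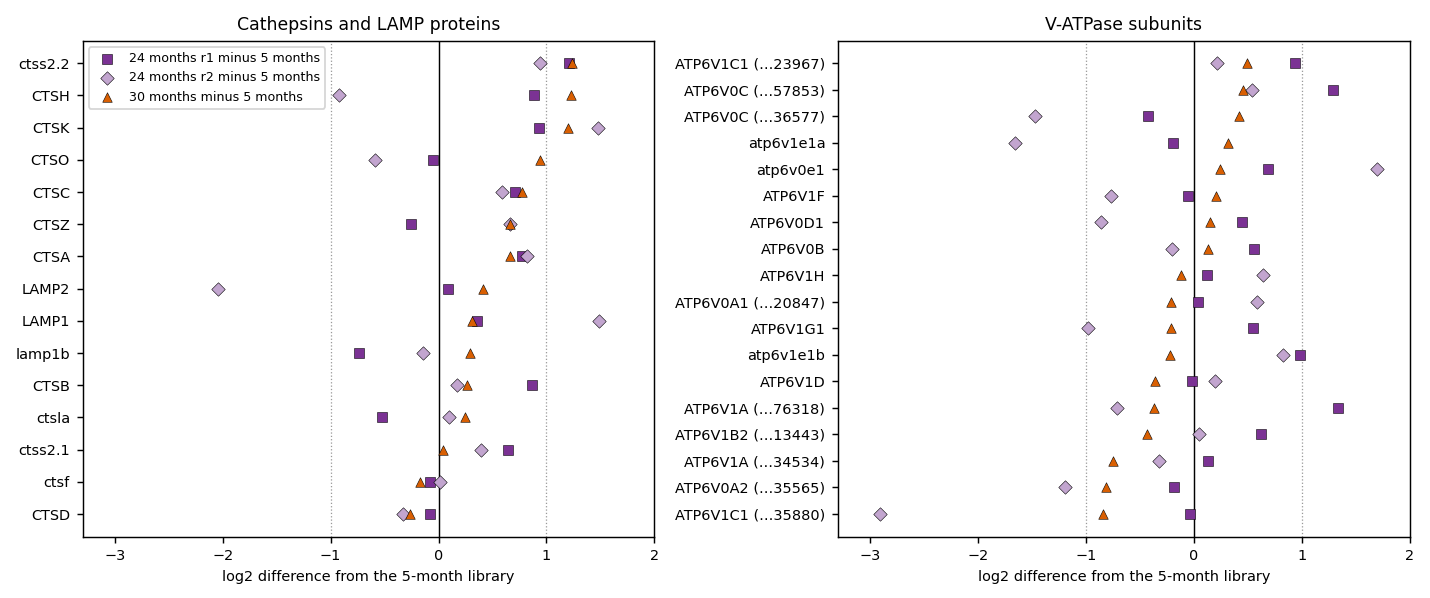
Log2 difference of each older library from the 5-month library for the 33 members with a mean of at least 5 CPM; dotted lines mark 2-fold. At 30 months (orange triangles) 10 of 12 cathepsins and all 3 LAMP genes lie right of 0 and 8 of 11 V1 genes lie left of it, and 3 cathepsins but no V-ATPase gene lie beyond 2-fold.

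Between 30 and 5 months, the libraries that share a strain name, most cathepsins stood higher and most V1 genes lower. At least 2-fold differences were seen for 3 of 33 members, all higher at 30 months, where 27.0% of all genes with at least 5 CPM differed that far and 12.2% were that much higher. This comparison has 1 library a side and no test. The 3 were ctss2.2 (2.36 times), CTSH (2.35 times) and CTSK (2.30 times), and with library totals in place of TMM scaling none of these reached 2-fold. Median log2 differences were 0.66 for the 12 cathepsins, with 10 higher (52.9% of all genes were), 0.31 for the 3 LAMP genes, all higher, and −0.17 for the 18 V-ATPase genes, with 8 higher, beside 0.06 for all genes. Library totals shift the median of all genes by −0.29 here, by −0.23 between 24 and 5 months and by −0.12 on the trend. Under them 7 of 12 cathepsins, 2 of 3 LAMP genes and 4 of 18 V-ATPase genes were higher, the medians being 0.37, 0.02 and −0.47.

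The spread of the 24-month pair exceeded the difference between 30 and 5 months for 5 of 12 cathepsins, 3 of 3 LAMP genes and 15 of 18 V-ATPase genes, and for 60.4% of all genes with at least 5 CPM. The 7 cathepsins with the larger difference between 30 and 5 months were ctss2.2, CTSK, CTSO, CTSC and CTSA, higher at 30 months, and CTSD and ctsf, lower there. The 3 pump genes were ATP6V1A (ENSDARG00000034534), ATP6V1D and atp6v1e1b, all lower at 30 months.

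**Figure D3:**
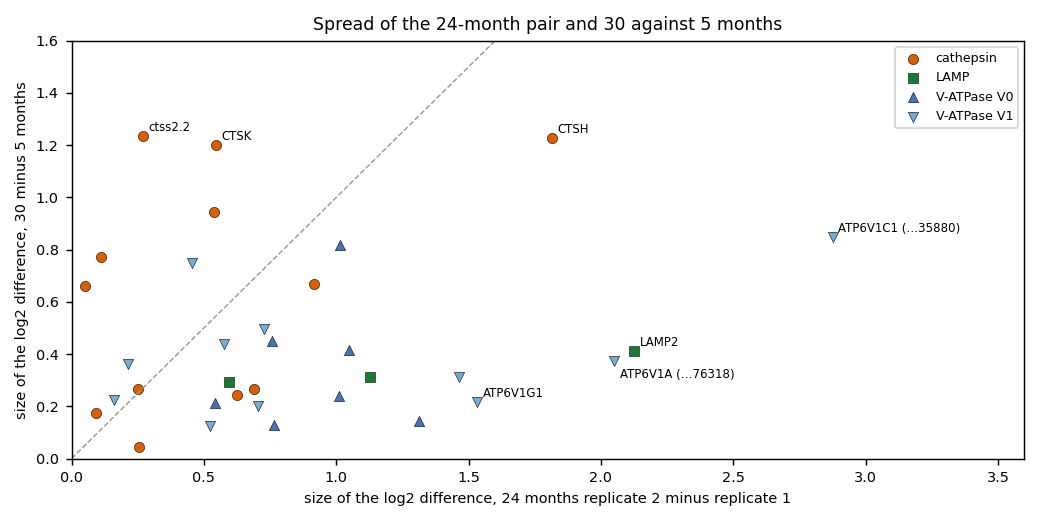
Size of the log2 difference between 30 and 5 months (vertical) against that between the 24-month replicates (horizontal) for the 33 members with a mean of at least 5 CPM; the dashed line marks equal size. Of 18 V-ATPase genes 15 lie below the line, as do 5 of 12 cathepsins.

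In the V0 sector the proton-binding ring gene ATP6V0C (ENSDARG00000057853) stood at 157 CPM at 5 months, 384 and 227 CPM at 24 months and 214 CPM at 30 months. Its level was lowest in the young library and replicate 1 stood apart as the highest. The log2 difference was 0.96 between 24 and 5 months (SE 0.98, edgeR adjusted p = 1). The small subunit atp6v0e1 stood at 12.05 CPM at 5 months, 19.4 and 39.2 CPM at 24 months and 14.2 CPM at 30 months, with replicate 2 high (log2 difference of 24 against 5 months 1.28, SE 1.11, edgeR adjusted p = 1). ATP6V0D1, which couples the ring to the stalk, stood at 36.9, 50.2, 20.2 and 40.8 CPM in order of age and replicate, and replicate 2 was the low one. The a subunit, which forms the path of the protons, is given by ATP6V0A1 (ENSDARG00000020847) at 52.2, 53.7, 78.2 and 45.0 CPM and by ATP6V0A2 (ENSDARG00000035565) at 27.6, 24.3, 11.998 and 15.6 CPM. In replicate 2 the first of these was highest and the second lowest.

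In the V1 sector the catalytic A subunit ATP6V1A (ENSDARG00000034534) stood at 57.5 CPM at 5 months, 62.8 and 45.8 CPM at 24 months and 34.2 CPM at 30 months. Its 30-month level was the lowest, outside the 24-month pair (log2 difference of 30 against 24 months −0.67, SE 0.90, edgeR adjusted p = 1). Its partner B subunit ATP6V1B2 (ENSDARG00000013443) stood at 74.3, 115, 76.9 and 54.7 CPM, again lowest at 30 months. The regulatory subunit ATP6V1H (59.4, 64.5, 92.7 and 54.4 CPM) and the stator gene atp6v1e1b (25.8, 51.3, 45.9 and 22.1 CPM) were also lowest at 30 months, the second with a log2 difference of −1.14 against 24 months (SE 0.97, edgeR adjusted p = 1). The other E1 row, atp6v1e1a, was highest at 30 months, at 39.6 CPM. The 30-month library was the lowest for 6 of 18 V-ATPase genes with at least 5 CPM and the highest for 3. Of all genes 23.9% were lowest and 25.5% highest there. The stator gene ATP6V1G1 (49.7, 72.7, 25.0 and 42.8 CPM) had replicate 2 as its lowest library. Of 18 V-ATPase genes with at least 5 CPM, 8 stood below both 24-month libraries at 30 months and 3 above both, where 32.4% and 31.1% of all genes did so. The remaining abundant pump genes were the V0 gene ATP6V0B, at 30.5 to 51.9 CPM over the 4 libraries, and the V1 stalk genes ATP6V1D, at 36.0 to 53.0 CPM, and ATP6V1F, at 7.55 to 14.9 CPM. The median log2 difference of the 18 was −0.34 between 30 and 24 months, beside −0.15 for all genes, and 0.31 without replicate 1.

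As a whole the pump genes summed to 753 CPM at 5 months, 1149 and 805 CPM at 24 months and 744 CPM at 30 months. Replicate 1 was the high library, and 9 of the 18 genes had their highest level there, where 14.6% of all genes did. All older libraries were above 5 months for 3 of the 18 and below it for 2, where 23.3% and 20.9% of all genes did so. Replicate 2 held the lowest level of 9, where 30.0% of all genes had it. The ionocyte list, cells rich in this pump, did not share that order, at 160 CPM at 5 months, 83.7 and 81.7 CPM at 24 months and 81.7 CPM at 30 months over 15 rows. Its most variable abundant row was SLC4A1 (ENSDARG00000012881), a gene that red blood cells also express. Without that row, left out for its values, the list summed to 73.3, 74.1, 80.1 and 79.2 CPM. Rows within that sum were not level: ca2 stood at 21.7, 28.5, 49.2 and 7.77 CPM. RHCG (ENSDARG00000007080) stood at 25.4, 32.7, 17.1 and 52.0 CPM. The ionocyte factors foxi3a and foxi3b were at 1.03 CPM or less in every library. Melanophore markers, of pigment cells whose organelles hold the pump, summed to 42.6, 33.0, 109 and 41.4 CPM over 9 rows. The macrophage list summed to 1023, 3324, 5581 and 2382 CPM over 21 rows, highest in replicate 2. Of its 16 markers with at least 5 CPM, 9 were highest in replicate 1 and 5 in replicate 2, where 14.6% and 39.1% of all genes were. The part of these cells in the pump levels was not tested.

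A pattern ran through subunits that 2 rows encode. For 7 such pairs (the rows of ATP6V0A1, ATP6V0A2, ATP6V0C, ATP6V1A, ATP6V1B2 and ATP6V1C1, and atp6v1e1a with atp6v1e1b), the share of the pair's counts from the row with the lower mean was lowest in replicate 2 of 24 months in 7 of 7. That mean included replicate 2, which favours a low share there. For comparison, 1087 symbols were carried by 2 rows of which the larger averaged at least 5 CPM. With their lower row named without replicate 2, its share was lowest there for 41.8%. Named that way, 6 of the 7 pump pairs kept their lower row, and all 6 had its lowest share in replicate 2. In the seventh, atp6v1e1b then becomes the lower row by a narrow margin, and its share was highest in replicate 2. Named in the same way, the pattern thus held in 6 of 7 pairs, beside 41.8% of symbols. The seventh pair carries 2 different symbols, so it is not of the kind counted in that share. The pattern was noticed in these libraries and has no test.

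The pairs differed in size. For the C subunit, which holds the sectors together, ATP6V1C1 (ENSDARG00000035880) stood at 13.97 CPM at 5 months, 13.6 and 1.76 CPM at 24 months and 7.72 CPM at 30 months, and gave 41.6% of the pair's counts at 5 months, 26.5% and 7.17% in the 24-month pair and 21.8% at 30 months (95% Wilson interval of 4.53 to 11.2% in replicate 2). Its partner (ENSDARG00000023967) stood at 19.6, 37.7, 22.8 and 27.7 CPM and was not low in replicate 2. The stator gene atp6v1e1a stood at 31.8, 27.9, 10.03 and 39.6 CPM and gave 55.2%, 35.2%, 17.9% and 64.2% of its pair. The second ATP6V1A row (ENSDARG00000076318) stood at 17.4, 44.1, 10.6 and 13.4 CPM, or 23.3%, 41.2%, 18.7% and 28.2%, and was high in replicate 1. The second ATP6V0C row (ENSDARG00000036577) stood at 13.97, 10.4, 4.96 and 18.7 CPM, or 8.19%, 2.64%, 2.14% and 8.03%.

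In the 3 pairs with a scarce row, that row had 2 or 3 counts in replicate 2, the library of lowest depth. The second ATP6V1B2 row (ENSDARG00000043465) had 89, 80, 2 and 124 counts in order of age and replicate, or 5.44%, 2.95%, 0.268% and 10.6% of its pair. The second ATP6V0A1 row (ENSDARG00000015174) had 54, 49, 3 and 44 counts, or 4.73%, 3.82%, 0.395% and 4.88% of its pair. The second ATP6V0A2 row (ENSDARG00000035538) had 54 and 64 counts at 5 months and in replicate 1 but 3 in replicate 2 and 9 at 30 months, and so was low in the same libraries as the germ cell markers, a link that was not tested. This ATP6V0A2 row gave 8.57%, 10.3%, 2.52% and 2.93% of its pair. The interval of replicate 2 (0.861 to 7.15%) overlapped those of 5 and 30 months. For 4 of the 7 pairs (ATP6V0A1, ATP6V1B2, ATP6V1C1 and the E1 pair) the interval of replicate 2 lay below those of the 3 other libraries. In the E1 pair this rests on naming atp6v1e1a the lower row, which holds only with replicate 2 in the mean. How many of all symbols with 2 rows had such intervals was not counted. The last V-ATPase row, ATP6V1C2, had 6, 0, 0 and 4 counts.

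**Figure D4:**
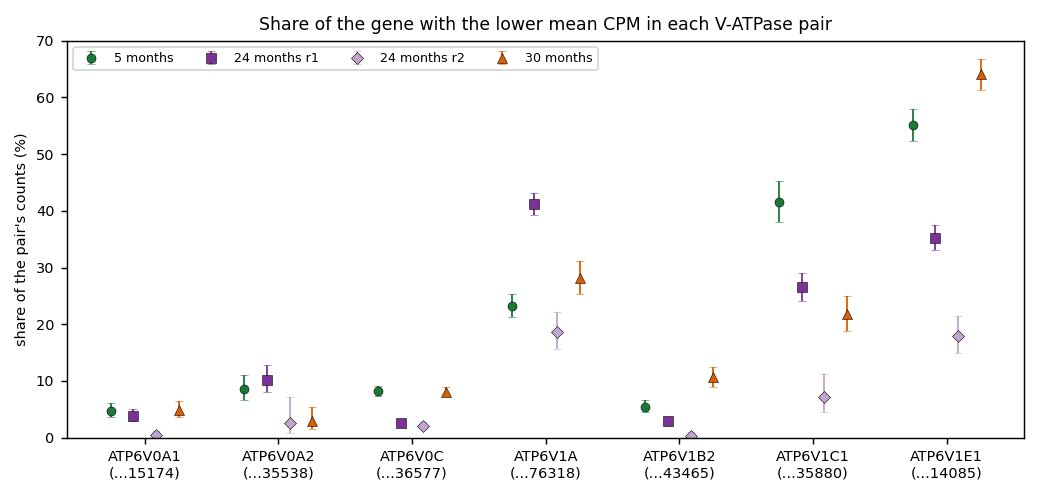
Share of a pair's counts, in percent, from the row with the lower mean CPM, for 7 V-ATPase subunits with 2 rows; bars are 95% Wilson intervals of counting error, and r1 and r2 are the 24-month replicates. The pale diamonds (replicate 2) are the lowest point of each pair, from 0.268% for ATP6V1B2 to 18.7% for ATP6V1A.

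Other lysosomal lists held 68 hydrolase and membrane, 18 V-ATPase partner, 7 protease inhibitor, 21 TFEB family and signalling and 33 autophagy rows. None of these rows had a call in the 3 edgeR tests, which called 0.125%, 0.683% and 0% of all genes. Between 30 and 5 months the 59 hydrolase and membrane genes with at least 5 CPM had a median log2 difference of 0.39 (all genes, 0.06). With library totals it was 0.10, and these totals shift the median of all genes by −0.29. Of the 59, 40 were higher by TMM scaling, beside 52.9% of all genes. With library totals 33 were higher, and no share of all genes is given under that scaling. They included FUCA1 (ENSDARG00000035890), a fucosidase, at 59.2, 58.3, 133 and 209 CPM in order of age and replicate, and PSAP, the precursor of sphingolipid activators, at 492, 645, 920 and 643 CPM. The esterase LIPA, at 18.5, 40.2, 33.3 and 37.9 CPM, and cst3, the secreted cathepsin inhibitor cystatin C, at 79.4, 127, 144 and 164 CPM, were lowest in the young library. Among pump partners 10 of 13 were lower at 30 than at 5 months, while 52.9% of all genes were higher. Their median was −0.38, and with library totals 12 of 13 were lower. Of the 3 higher by TMM scaling, RNASEK (ENSDARG00000104458) had the smallest trend p of its list. It stood at 4.08, 8.69, 15.4 and 20.8 CPM in order of age and replicate. The second RNASEK row (ENSDARG00000069461) stood at 17.3, 22.7, 8.59 and 15.4 CPM and did not share that order. TCIRG1 (ENSDARG00000105142), the a subunit of osteoclasts and immune cells in mammals, stood at 35.5, 130, 22.5 and 43.5 CPM, so replicate 1 was high there as for ATP6V0C. The second TCIRG1 row (ENSDARG00000016835) stood at 14.7, 7.86, 7.24 and 9.08 CPM, highest in the young library. MTOR, the kinase that holds TFEB in the cytoplasm, stood at 126, 64.3, 77.2 and 60.2 CPM, lower in all older libraries. Autophagy genes were higher at 30 than at 5 months in 24 of 31 (median 0.19). With library totals, which lower the median of all genes, 12 of 31 were higher. Of the protease inhibitors 3 of 5 were higher, and of the TFEB family and signalling genes 10 of 17 (2 and 7 with library totals). By TMM scaling both lie near the 52.9% of all genes.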

How the data were processed

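RNA-seq of male zebrafish skin was deposited as raw read counts per gene for 4 libraries. The tools named are CASAVA 1.7, STAR 2.4.1d and featureCounts 1.4.6-p4, and the build was GRCz10, per the submitters' processing notes. Which gene annotation was counted, and whether strand was used, is not given in the sources used here, so overlapping and antisense genes cannot be told apart. A second deposited table was not used, since its values did not keep 1 factor per library relative to the counts. Of 32105 genes, 26269 got a symbol from a table of gene names. No coordinates or sequences are given.

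Counts were scaled by TMM, filtered with filterByExpr (21535 genes tested) and tested with edgeR 4.0.16 (R 4.3.3; glmQLFit, glmQLFTest, Benjamini-Hochberg adjusted p under 0.05 over all tested genes). A model of the 3 ages gave 24 against 5 and 30 against 24 months with 1 residual degree of freedom, and a linear model in age gave the trend with 2. Log2 values between single libraries used a prior count of 2, and standard errors are the log2 difference divided by the root of F. Alternatives were DESeq2 1.42.0, its size factors, library totals alone, no filter, a prior count of 0.5 and leaving out each 24-month replicate. The edgeR step was tested on simulated data with a set dispersion (spread between libraries) of 0.1, not matched to these libraries. True 4-fold differences were recovered for 30% of changed genes between 24 and 5 months. The share was 56% between 30 and 24 months and 13% on the trend. For 64-fold differences it was 100% in each.

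The members and lists were chosen with earlier results of these data known. Full values were given for LAMP genes, the 12 cathepsins and 10 V-ATPase genes of widest range and the 6 of each with most reads, all with a mean of at least 5 CPM. Of each pathway list the most abundant gene and the 3 with the smallest trend p could be named. The second rows of RNASEK and TCIRG1 were added beside the rows so named.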

Additional observations from a re-analysis of the deposited data

How the results depend on the processing

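No member was called under any setting that gave a test. Counts over all genes were less stable: 24 against 5 months called 27 genes, 0 with library totals and 42 with DESeq2; 30 against 24 months called 147, 2 with library totals and 71 with DESeq2; the trend called 0, 30 with DESeq2 and 0 to 361 when a 24-month replicate was left out (361 without replicate 1). The cathepsin median (log2) between 24 and 5 months was 0.40, 0.24 with library totals and 0.28 to 0.75 without a replicate. Its trend was 0.23, or 0.11 with library totals. Between 30 and 5 months it was 0.66, or 0.37 with library totals. Dropping the filter alone left these medians at 0.40 and 0.66, dropping the 5 CPM minimum alone gave 0.54 and 0.46 (16 cathepsins), and dropping both gave 0.55 and 0.26 (17 cathepsins). The V-ATPase median between 30 and 24 months was −0.34 and lay from −0.45 to 0.31 without a replicate. With library totals, at least 2-fold differences between 30 and 5 months were counted for 0 cathepsins (3 by TMM) and 3 V-ATPase genes (0 by TMM). V-ATPase genes above 5 months in all older libraries numbered 3, 1 with library totals, and 3 to 5 without a replicate. The alternatives for these counts, dropping the CPM minimum, and naming the lower row of a pair without replicate 2, were chosen after seeing the data. The causes were not tested beyond these settings. Among 638 values of named members under alternatives, 41 moved by more than the spread of the 24-month pair and 47 changed sign, 15 of them with library totals. Leaving out a replicate leaves 1 library an age, so group differences are then values with no test. No paired analysis was possible because the labels carry no replicate numbers shared between ages. Depth was lowest in replicate 2, where a count of 0 allows 0.310 CPM.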
